A study of Homo sapiens with 12 samples.

Results

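Full-length ING1b was expressed alone in HEK293T cells and set against the empty vector, on 4 of the 12 bead arrays of the study. The members were chosen by sample title, 2 arrays labelled ING1b and 2 labelled Control, and no measured value was used to choose them. HEK293T is a human embryonic kidney cell line that carries the SV40 large T antigen. All groups received plasmid DNA by transient transfection and were harvested 48 h later, with 2 replicates a group. The groups were human ING1b, human GADD45a with ING1b (GADD45a+ING1b), ING1b without its PHD domain (ING1bΔPHD), GADD45a with ING1bΔPHD, human GADD45a, and the empty vector (Control). The share of cells that took up plasmid is not given in the sources used here. In RNA from a whole culture, a change in some of the cells and a smaller change in all of them cannot be told apart.

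ING1b is the main product of ING1, a tumour suppressor gene of the inhibitor of growth family. It joins SIN3 complexes that contain the histone deacetylases HDAC1 and HDAC2, and its C-terminal PHD finger binds histone H3 trimethylated at lysine 4, a mark of active promoters. Inhibitors of histone deacetylases are known to raise the messages of a recurring set of genes, which includes DHRS2, TUBB3 and some histone genes.

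In cells given ING1b, 40 genes (0.376%) rose and 6 (0.0564%) fell among 10645 tested, 0.432% in all (limma, Benjamini-Hochberg adjusted p under 0.05). At an unadjusted p under 0.05 there were 1069 genes (10.0%). Histone, immediate-early, heat shock and neuronal genes were among those that rose. The gene lists used below were written with earlier results of these data known, so counts of their members are not independent evidence. DHRS2, which encodes a mitochondrial short-chain dehydrogenase, showed the largest rise of any protein-coding gene and was at least 16.5-fold higher in ING1b. NOP53, which encodes a nucleolar factor of large ribosomal subunit assembly, was 3.19-fold lower in ING1b, and this was the largest fall. Values are normalized intensities on the log2 scale, and changes are differences of group means with the standard error (SE) of the fit. The dimmest detected probe, taken as the detection floor, lay at 5.76 to 5.85 on these 4 arrays. Fitting replicate 1 and replicate 2 as blocks gave 66 rises (0.62%) and 19 falls (0.178%), 0.798% in all, and the 46 genes called without the block were among them. The count rested on single arrays: it was 8 without ING1b replicate 1, 18 without ING1b replicate 2, 69 without Control replicate 1 and 13 without Control replicate 2. Of the 46, 7 were tested and passed without each of these 4 arrays in turn: CCDC22, DHRS2, GADD45B, H2BC5, LGALS1, TCEAL7 and TUBB3.

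The promoters of 7 genes that rose are shown because they stand for the gene groups described below and carry sequence elements named for those groups. They come from RefSeq on GRCh38.p14, hold the 250 bases before the annotated start, and are written 5′ to 3′ on the gene's strand. Capitals in the first 3, which belong to histone H2B genes, mark the octamer ATTTGCAT, the binding motif of OCT1, and TATAAA, each on either strand. The positions are chr6:26157871-26158120 on the plus strand for H2BC5, chr6:27132796-27133045 on the minus strand for H2BC11 and chr1:149886683-149886932 on the minus strand for H2BC21.
H2BC5: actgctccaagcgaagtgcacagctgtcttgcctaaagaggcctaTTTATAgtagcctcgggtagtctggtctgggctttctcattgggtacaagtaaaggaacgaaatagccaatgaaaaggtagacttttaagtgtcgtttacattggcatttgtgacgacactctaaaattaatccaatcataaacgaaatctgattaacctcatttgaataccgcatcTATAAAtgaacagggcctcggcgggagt
H2BC11: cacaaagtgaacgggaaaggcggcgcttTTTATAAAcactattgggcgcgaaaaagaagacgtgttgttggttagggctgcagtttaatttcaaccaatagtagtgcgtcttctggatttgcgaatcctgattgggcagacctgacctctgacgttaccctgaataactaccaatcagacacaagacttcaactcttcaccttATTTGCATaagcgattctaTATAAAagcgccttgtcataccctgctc
H2BC21: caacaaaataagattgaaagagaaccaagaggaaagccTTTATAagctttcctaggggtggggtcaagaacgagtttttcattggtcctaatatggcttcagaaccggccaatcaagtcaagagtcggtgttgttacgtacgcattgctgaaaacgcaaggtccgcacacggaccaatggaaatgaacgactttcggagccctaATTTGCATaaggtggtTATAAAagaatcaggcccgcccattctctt
In HSPA6, an inducible HSP70 gene, capitals mark 2 matches of GAANNTTC, a pair of heat shock units that reads alike on both strands (chr1:161524290-161524539, plus strand).
HSPA6: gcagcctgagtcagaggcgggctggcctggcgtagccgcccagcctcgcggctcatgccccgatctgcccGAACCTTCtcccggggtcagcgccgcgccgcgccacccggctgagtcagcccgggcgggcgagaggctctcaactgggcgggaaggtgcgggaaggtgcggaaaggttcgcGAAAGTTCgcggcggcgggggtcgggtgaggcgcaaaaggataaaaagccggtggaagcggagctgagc
In EGR1, an immediate-early gene, capitals mark 2 matches of the CArG box, the site of serum response factor (chr5:138465229-138465478, plus strand).
EGR1: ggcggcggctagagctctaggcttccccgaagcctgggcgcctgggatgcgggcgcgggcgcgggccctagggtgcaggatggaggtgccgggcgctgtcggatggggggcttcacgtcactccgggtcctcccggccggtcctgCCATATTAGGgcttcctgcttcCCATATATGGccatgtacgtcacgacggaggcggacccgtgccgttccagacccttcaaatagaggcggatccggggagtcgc
In VGF, a neuropeptide precursor gene, capitals mark TGACGTCA, the cyclic AMP response element (chr7:101165570-101165819, minus strand).
VGF: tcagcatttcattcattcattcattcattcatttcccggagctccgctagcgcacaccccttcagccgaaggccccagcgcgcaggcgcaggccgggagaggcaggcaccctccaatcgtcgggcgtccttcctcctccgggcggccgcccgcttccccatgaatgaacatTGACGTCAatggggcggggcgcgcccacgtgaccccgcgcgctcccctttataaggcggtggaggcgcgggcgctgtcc
In DHRS2, capitals mark TATAAA (chr14:23629865-23630114, plus strand).
DHRS2: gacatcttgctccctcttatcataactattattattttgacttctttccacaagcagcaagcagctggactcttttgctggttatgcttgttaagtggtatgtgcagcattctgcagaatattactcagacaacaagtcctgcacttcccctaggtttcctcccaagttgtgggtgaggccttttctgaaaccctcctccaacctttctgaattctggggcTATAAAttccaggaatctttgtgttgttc

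Motif matches were counted on both strands in 35116 promoters, from 250 bases before to 50 after the start, and 39 of the 46 called genes had such a sequence. The octamer began 47 bases before the start of H2BC11 and 46 before that of H2BC21, and it was absent from the H2BC5 window. It was found in 8 of the 23 histone promoters among the clustered histone genes tested and in 1.77% of all promoters. TATAAA was found in 10 of the 34 promoters of genes that rose, in 18 of those 23 histone promoters and in 11.5% of all promoters. In DHRS2 it began 29 bases before the start, in H2BC5 28 and in H2BC21 30. CCAAT was found in 20 of the 34 promoters of genes that rose and in 34.6% of all. GAANNTTC occurred in HSPA6, CDKN2D, SPANXA2 and SPANXC among the 34, and in 6.77% of all promoters. The CArG box, with any run of A and T between its ends, occurred in EGR1 and H2BC21, and in 1.29% of all. The 2 matches in EGR1 began 105 and 83 bases before the start. The cyclic AMP response element occurred in VGF and in the histone gene H4C8, and in 1.85% of all promoters. Its first part, TGACG, occurred in 11 of the 34 and in 24.6% of all promoters. Motifs of other factors were the EGR site GCGGGGGCG, in 2 of 34 and 5.07% of all, the AP-1 site TGACTCA, in 2 of 34 and 4.95%, and the E-box CACGTG, in 4 of 34 and 7.26%. These counts describe the letters in the windows and were not tested.

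The transfected gene was read first. ING1 had 4 probes, of which 1 was detected. Its normalized level was 7.11 and 6.85 in ING1b, against 6.88 and 6.48 in Control, and the arrays of the groups overlapped (log2 change 0.30, SE 0.175, limma adjusted p = 0.634). Whether that probe lies in the part of the message that the plasmid carried was not analysed here, so it does not check the label. One GADD45A probe, ILMN_1694075, went against the labels in the rest of the series: its raw signal was 1015 and 1088 in ING1b and 744 and 1021 in Control, and 128 to 160 on the 6 arrays labelled with GADD45a. If the labels of GADD45a-positive and GADD45a-negative arrays had been swapped, the comparison of ING1b with Control would be that of GADD45a+ING1b with GADD45a. Both are therefore given below. The second GADD45A probe had 10.60 and 10.43 in ING1b and 10.26 and 10.39 in Control (log2 change 0.19, limma adjusted p = 0.77). Its raw signal was 858 to 1127 on the 6 arrays labelled with GADD45a and 1152 to 1851 on the other 6, so it too was lower where GADD45a is in the label. Whether either GADD45A probe lies in the transfected sequence was not analysed here. The 2 probes of MAGEB2, a cancer-testis gene, were detected on 0 arrays.

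Across the series 14555 to 16301 of 47323 probes were detected per array, and the across-gene correlation between the replicates of a group was 0.980 to 0.987. Of 8 markers of HEK293-type cells 7 were tested, and their changes ran between -0.33 and -0.02 with none called. Blood, fibroblast, endothelial and liver lists held 18 markers, of which 4 were tested and 0 were called. Of 10 neuron markers 3 were tested, TUBB3, CHGA and SYT1, and TUBB3 rose.

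DHRS2 had 9.75 and 9.91 in ING1b, against 4.91 and 5.18 in Control, where it was not detected. The groups lie far apart (limma adjusted p = 3.06e-05), and the second probe of the gene differed by 3.71 on the log2 scale. The other 27 tested short-chain dehydrogenase genes gave 0 calls, and the median over all 28 was -0.06. TCEAL7, of the family of transcription elongation factor A-like genes, had 8.04 and 7.97 in ING1b and 5.13 and 5.57 in Control, a rise of at least 4.68-fold. The rise was read from 1 probe, and the second probe of TCEAL7 was detected on 0 arrays. The other 9 tested TCEAL and BEX genes gave 0 calls.

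**Figure D1:**
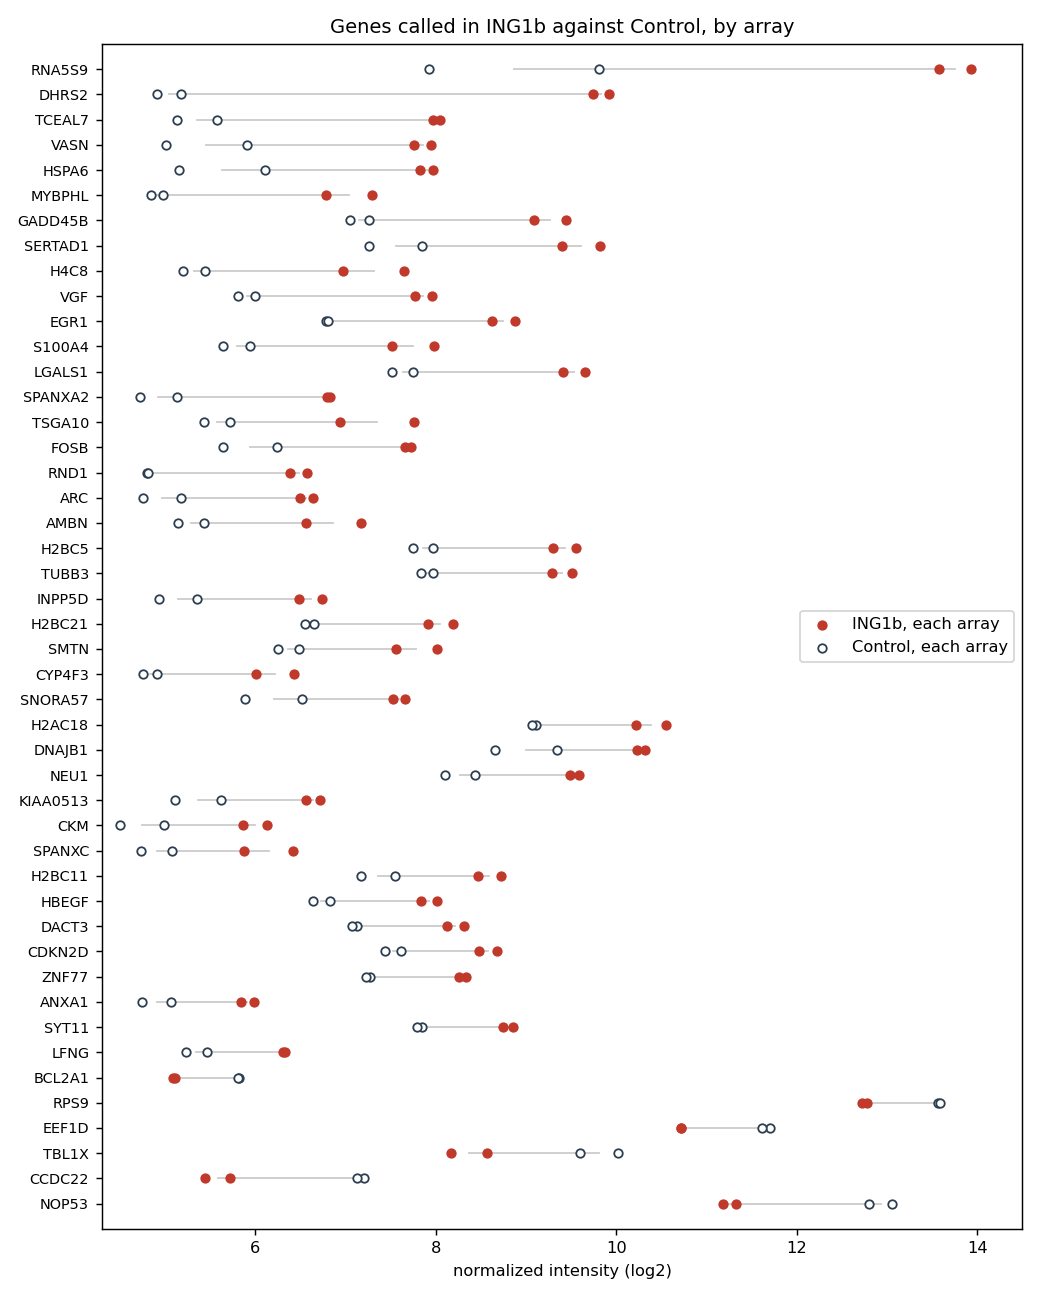
Normalized intensity (log2) of the 46 called genes on each array, ING1b as filled points and Control as open points, with a line joining the group means. In every gene the 2 ING1b arrays lie on one side of both Control arrays, and DHRS2 and RNA5S9 show the widest gaps. The genes were called on these arrays, so the lack of overlap is partly set by that choice. Over all genes both ING1b arrays lie above both Control arrays in 18.6% and below in 18.3%.

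Among the replication-dependent histone genes, 5 of 24 tested rose and 0 fell, and the median change of the 24 was 0.37, against 0.004 for all genes. H2BC5 had 9.56 and 9.29 in ING1b and 7.97 and 7.75 in Control, a 2.96-fold rise. H2AC18 had 10.55 and 10.22 in ING1b and 9.11 and 9.06 in Control, a 2.46-fold rise. Their second detected probes differed by 1.11 and 1.37, and another probe of H2BC5 was detected on 0 arrays. H2BC21 had 7.91 and 8.19 in ING1b and 6.65 and 6.55 in Control, and H2BC11 had 8.72 and 8.46 in ING1b and 7.55 and 7.17 in Control. H4C8 was at least 2.88-fold higher, with 7.65 and 6.97 in ING1b and 5.20 and 5.44 in Control, where it was not detected. No array of one group reached the range of the other in these 5 genes, which is partly set by their being called on these arrays.

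Among the histone genes that did not pass, H2AC6 had 7.93 and 7.20 in ING1b and 6.13 and 5.50 in Control (limma adjusted p = 0.204, and 0.0136 with the replicate block), and H2AC19 had 9.80 and 9.25 in ING1b and 8.63 and 8.34 in Control (limma adjusted p = 0.104, and 0.0125 with the block). The 2 ING1b arrays lay above both Control arrays in 13 of the 24 genes and below in 2. Over all genes those shares were 18.6% above and 18.3% below. ING1b replicate 1 was the higher array in most of these genes: the median of replicate 2 minus replicate 1 was -0.50 for the histone list, against -0.01 for all genes. Without ING1b replicate 1 the list's median change was 0.41 and without replicate 2 it was 0.68, with 1 and 3 genes called. Of 11 polyadenylated histone variant genes 0 were called and 1 was called with the block, H2AJ, with 9.16 and 9.15 in ING1b and 8.42 and 8.39 in Control (limma adjusted p = 0.104, and 0.0323 with the block). As background, the messages of the clustered genes mostly end in a stem-loop without a poly(A) tail, the labelling kit primes from poly(A), and members of a family are similar enough to share probes.

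Among the immediate-early genes, which respond within minutes to growth factors and stress, 3 of 30 tested rose and 0 fell, with a list median of 0.10. EGR1, a zinc finger transcription factor, had 8.88 and 8.62 in ING1b, against 6.78 and 6.80 in Control, a 3.87-fold rise. FOSB, an AP-1 subunit, had 7.66 and 7.73 in ING1b and 5.64 and 6.24 in Control, at least 3.23-fold higher. ARC, which acts at synapses of neurons, had 6.63 and 6.50 in ING1b and 5.17 and 4.75 in Control, at least 1.72-fold higher. The Control arrays did not detect ARC, and 1 of them did not detect FOSB. FOS had 7.00 and 6.73 in ING1b and 5.91 and 5.59 in Control and did not pass (limma adjusted p = 0.208). JUN, the usual partner of FOS, had 11.57 and 11.84 in ING1b and 11.57 and 11.81 in Control.

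GADD45B was the only call among 13 genes of the GADD45 family and the stress kinases, whose median was 0.06. GADD45B, a stress-induced paralog of GADD45A, had 9.09 and 9.44 in ING1b and 7.05 and 7.25 in Control, a 4.32-fold rise (limma adjusted p = 0.000841). SERTAD1, HBEGF and RND1 rose too and belong to neither of these lists. SERTAD1, which binds the kinase CDK4 and stimulates E2F factors, had 9.82 and 9.40 in ING1b and 7.85 and 7.26 in Control, a 4.15-fold rise. Both genes showed gaps of over 1.5 between the nearest arrays of the groups. HBEGF, a ligand of the EGF receptor, had 7.83 and 8.02 in ING1b and 6.83 and 6.64 in Control, a 2.28-fold rise. RND1, a small GTP-binding protein that acts on the actin cytoskeleton, had 6.39 and 6.57 in ING1b and 4.80 and 4.81 in Control, at least 1.62-fold higher. GADD45G, the third family member, had 6.54 and 6.88 in ING1b and 5.13 and 5.83 in Control and did not pass (limma adjusted p = 0.09).

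Of 22 heat shock and chaperone genes 2 rose. HSPA6 had 7.83 and 7.97 in ING1b and 6.11 and 5.16 in Control, at least 3.84-fold higher, and its second probe, detected in neither group, differed by 0.60. DNAJB1, the HSP40 partner of HSP70, had 10.31 and 10.23 in ING1b and 9.35 and 8.65 in Control, a 2.42-fold rise. Control replicate 2 was the lowest of the 4 arrays in 16 of the 22 genes, most in HSPA1B, with 13.50 and 13.60 in ING1b and 13.53 and 11.66 in Control. The list's median was 0.18, and it was 0.01 without Control replicate 2. The DNAJB1 call was lost without that array and also without either ING1b array, and the HSPA6 call was lost without either ING1b array.

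Of 20 genes tested from the neuronal list, 4 rose, against 0.376% of all genes. TCEAL7 is one of the 4 and is also counted among the TCEAL and BEX genes. VGF, the precursor of secreted neuropeptides, had 7.76 and 7.96 in ING1b, against 6.00 and 5.81 in Control, a 3.88-fold rise. TUBB3, the neuronal beta-tubulin, had 9.29 and 9.51 in ING1b and 7.97 and 7.84 in Control, a 2.82-fold rise. The other 15 tubulin genes tested gave 0 calls, with a median over all 16 of 0.08. SYT11, a synaptotagmin of vesicle traffic, had 8.86 and 8.75 in ING1b and 7.85 and 7.79 in Control, a 1.98-fold rise, and TCEAL7 was the remaining call. The list had a median of 0.19, and 7 of the 10 markers of neurons themselves, among them STMN2, SNAP25 and RBFOX3, were not tested because they failed the detection filter.

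A list of 40 genes known from other studies to rise with histone deacetylase inhibitors held 32 tested genes, of which 9 rose and 0 fell, with a median of 0.57. The list was written with earlier results of these data known, so its direction is not independent evidence. The calls were DHRS2, TCEAL7, HSPA6, GADD45B, H2BC5, TUBB3, H2BC21, SYT11 and ANXA1. ANXA1 was detected on the 2 ING1b arrays alone, so its call adds no weight to the count. Of 21 ING and SIN3-HDAC genes 0 were called, and their median change was 0.03. HDAC1 had 12.96 and 13.09 in ING1b and 12.83 and 12.86 in Control (limma adjusted p = 0.733), and SAP130 had 9.89 and 9.59 in ING1b and 9.31 and 9.10 in Control (limma adjusted p = 0.342).

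**Figure D2:**
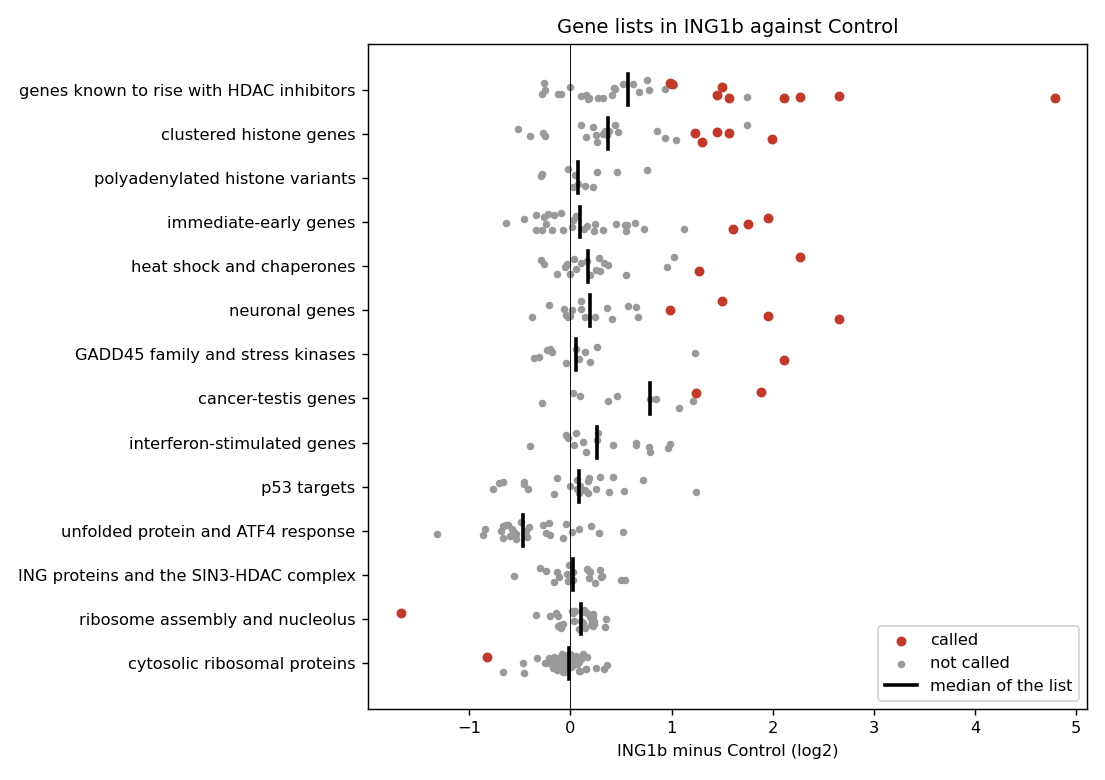
Log2 change of ING1b minus Control for the tested members of 14 gene lists, with called genes in red, other genes in grey and a black line at each list's median. The cancer-testis genes have the highest median, 0.79 over 11 tested genes, and their called genes were detected on the ING1b arrays alone. The list of genes known to rise with HDAC inhibitors has a median of 0.57 and the clustered histone genes one of 0.37, while the SIN3-HDAC list lies around 0.

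LGALS1, which encodes the secreted lectin galectin-1, had 9.65 and 9.41 in ING1b and 7.51 and 7.75 in Control, a 3.72-fold rise. S100A4, a calcium-binding protein of motile cells, had 7.98 and 7.51 in ING1b and 5.95 and 5.64 in Control, at least 3.66-fold higher, and its second probe differed by 1.11. These were the only calls among 9 tested galectin and S100 genes. VASN, a membrane protein that binds TGF-beta, had 7.95 and 7.76 in ING1b and 5.90 and 5.01 in Control, at least 4.01-fold higher. NEU1, the lysosomal sialidase, rose 2.41-fold, and DACT3, an antagonist of Wnt signalling, rose 2.17-fold. CDKN2D, an inhibitor of CDK4 and CDK6, rose 2.08-fold and was the only call among 33 G1/S genes, while 33 G2/M genes gave 0 calls. SMTN, a cytoskeletal protein of smooth muscle, rose 2.67-fold at 1 probe while another detected probe differed by 0.11. ZNF77, a zinc finger gene, rose 2.06-fold, and KIAA0513 was at least 1.80-fold higher.

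The remaining genes that rose were detected on neither Control array, and most were tested because the ING1b arrays detected them. SPANXA2 and SPANXC belong to a family of near-identical sperm protein genes on the X chromosome. SPANXA2 had 6.83 and 6.79 in ING1b and 5.13 and 4.72 in Control, at least 2.04-fold higher, and SPANXC was at least 1.29-fold higher. Of 58 cancer-testis genes on the array 11 were tested, and these were the 2 calls. The median change of the 11 was 0.79. TSGA10, a sperm tail gene, was at least 2.96-fold higher at 1 of 3 probes, and the other two were detected on 0 arrays. MYBPHL, a myosin-binding protein of heart muscle, had 7.29 and 6.78 in ING1b and 4.98 and 4.85 in Control, at least 2.38-fold higher. AMBN, an enamel matrix gene, was at least 2.11-fold higher, and INPP5D, a phosphatase of blood cells, at least 1.78-fold. LFNG, a glycosyltransferase that modifies Notch, CYP4F3, which inactivates leukotriene B4, CKM, the muscle creatine kinase, and ANXA1, a phospholipid-binding protein, were at least 1.45, 1.35, 1.16 and 1.09-fold higher.

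How a gene entered the test bears on these. Of the 40 genes that rose, 20 were detected on both Control arrays, 4 on 1 and 16 on neither. For 8 of the 16 (ANXA1, CKM, CYP4F3, INPP5D, LFNG, MYBPHL, SPANXA2 and SPANXC) the 2 ING1b arrays were the only arrays of the 12 with a detected signal. A gene that passed the detection filter in this way had to differ, and 20 genes did so in all, so the 8 calls carry no weight as a count. Without them 32 genes rose.

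**Figure D3:**
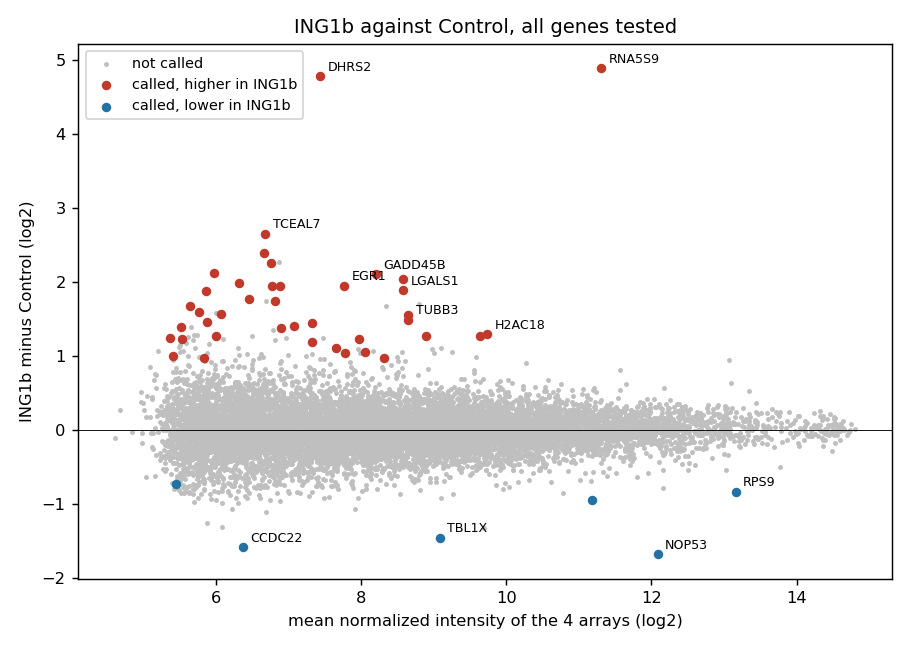
Log2 change of ING1b minus Control against the mean normalized intensity of the 4 arrays for all 10645 genes, with the 40 called rises in red and the 6 called falls in blue. RNA5S9 and DHRS2 stand at the top with fitted changes of 4.89 and 4.79 (DHRS2 was not detected in Control), and most other rises lie below an intensity of 9.

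RNA5S9, a gene of 5S ribosomal RNA, had 13.94 and 13.57 in ING1b, against 9.80 and 7.92 in Control, a 29.7-fold rise with the widest replicate gap among the called genes (SE 0.711). With 1 of the 4 arrays left out the log2 change ran between 3.94 and 5.85, and the call was lost without Control replicate 2 or either ING1b array. Of 95 small nucleolar RNAs, which guide modification of ribosomal RNA, 1 rose: SNORA57 had 7.52 and 7.66 in ING1b and 6.52 and 5.89 in Control, a 2.62-fold rise. The 95 had a median of 0.29, and 44 of them (46.3%) had both ING1b arrays above both Control arrays and 4 below. Over all genes those shares were 18.6% above and 18.3% below. SNORD3A and SNORD3D, U3 RNAs that act in early processing of ribosomal RNA, differed by 1.68 and 1.71 without passing (limma adjusted p = 0.184 and 0.0536). Control replicate 2 was the lowest of the 4 arrays for 53 of the 95, and the median was 0.19 without it. In GADD45a+ING1b against GADD45a the median of the 95 was 0.08, with 3 called up. Of 10 spliceosomal snRNAs 0 were called, and 7 had both ING1b arrays above both Control arrays, among them RNU6ATAC with 7.93 and 7.57 in ING1b and 6.12 and 5.47 in Control (limma adjusted p = 0.0515). These RNAs lack a poly(A) tail, and the part of the labelling step in the differences was not tested.

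The 6 genes that fell were NOP53, RPS9, EEF1D, TBL1X, CCDC22 and BCL2A1. NOP53 had 11.18 and 11.33 in ING1b, against 12.80 and 13.06 in Control. RPS9, a protein of the small ribosomal subunit, had 12.77 and 12.72 in ING1b and 13.57 and 13.58 in Control, 1.77-fold lower in ING1b, and its second probe differed by -0.90. RPS9 was the only call among 68 cytosolic ribosomal protein genes (median -0.02), and NOP53 the only one among 30 ribosome assembly genes (median 0.11). EEF1D, a subunit of translation elongation factor 1, had 10.71 and 10.71 in ING1b and 11.70 and 11.61 in Control, but a second bright probe of the gene differed by -0.03. TBL1X, a subunit of the NCoR-HDAC3 corepressor, had 8.17 and 8.56 in ING1b and 9.60 and 10.02 in Control, 2.73-fold lower in ING1b. CCDC22, of a complex that recycles membrane proteins, had 5.44 and 5.72 in ING1b and 7.20 and 7.12 in Control, at least 2.51-fold lower. BCL2A1, an anti-apoptotic gene, was at least 1.01-fold lower and was detected on the 2 Control arrays alone among the 12.

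The unfolded protein and ATF4 list gave 0 calls among 28 genes with a median of -0.46. Control replicate 2 was the highest of the 4 arrays in 21 of them, and the median of Control replicate 2 minus Control replicate 1 was 0.77, against -0.01 for all genes. TRIB3, an ATF4 target, had 9.04 and 9.04 in ING1b and 9.38 and 11.34 in Control, and the amino acid synthesis gene ASNS had 12.77 and 12.74 in ING1b and 12.86 and 13.73 in Control. Without Control replicate 2 the list's median was -0.10, and without Control replicate 1 it was -0.84 with 9 genes called. Other lists gave 0 calls: p53 targets (24 tested, median 0.09), interferon-stimulated genes (16, median 0.27), cholesterol synthesis (18, median 0.20) and H3K4 methylation enzymes (16, median 0.10). With the replicate block 1 interferon-stimulated gene and 1 cholesterol gene were called. IRF9, a DNA-binding factor of the interferon response, had 7.88 and 8.06 in ING1b and 7.10 and 6.92 in Control and missed the threshold (limma adjusted p = 0.0592, and 0.0167 with the block). Among 21 DNA methylation and demethylation genes GADD45B was the only call.

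Values just inside the threshold were SPANXC (limma adjusted p = 0.0496) and BCL2A1 (0.0425). Just outside were VCX3A, with 6.09 and 6.49 in ING1b and 4.90 and 5.25 in Control, and TENT5B, with 6.21 and 6.52 in ING1b and 4.77 and 5.15 in Control (limma adjusted p = 0.0515 for both).

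ING1b was also added to cells that received GADD45a, and the change there is read from 4 arrays that ING1b against Control does not use. The comparisons share the normalization, the detection filter and the spread estimated for each gene, so their lists of calls are not independent. In GADD45a+ING1b against GADD45a 55 genes (0.517%) rose and 8 (0.0752%) fell, 0.592% of those tested (119 genes, 1.12%, with the block). The count was 24 and 31 without GADD45a replicate 1 or 2, and 21 and 22 without GADD45a+ING1b replicate 1 or 2. Of the 46 genes called in ING1b against Control, 26 were called in the same direction, which is 56.5% of the first list and 41.3% of the second, and 0 in the opposite one. The sign was the same in 45 of 46, the exception being AMBN at -0.17. By comparison 48.1% of all genes were above 0 in the second addition. The 8 rises that were detected on the 2 ING1b arrays alone could not be detected in GADD45a+ING1b, so they say nothing here. Of the other 32 rises 22 were called in the second addition, with medians of 1.49 in the second addition and 1.59 in the first.

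Immediate-early genes were among those called in both additions. EGR1 had 10.34 and 9.80 in GADD45a+ING1b, against 6.81 and 6.87 in GADD45a (log2 change 3.23), and FOSB had 8.77 and 8.85 in GADD45a+ING1b and 5.05 and 5.67 in GADD45a, at least 7.83-fold higher. TUBB3 had 10.47 and 10.46 in GADD45a+ING1b and 7.84 and 8.03 in GADD45a (log2 change 2.53), and GADD45B had 9.87 and 10.08 in GADD45a+ING1b and 6.85 and 6.91 in GADD45a (log2 change 3.09). H2BC5, LGALS1 and NOP53 changed by 1.55, 1.78 and -1.79 in the second addition, against 1.56, 1.90 and -1.68 in the first. DHRS2 was at least 19.8-fold higher in the second addition and at least 16.5-fold higher in the first. S100A4 had 6.45 and 6.44 in GADD45a+ING1b and 5.92 and 6.00 in GADD45a and was not called there. MYBPHL had 4.82 and 4.61 in GADD45a+ING1b and 4.62 and 4.65 in GADD45a, all below detection. The difference between the additions was tested directly, and limma called 0 genes (0.0%), with 442 (4.15%) at an unadjusted p under 0.05 and 2 (0.0188%) with the replicate block. The smallest adjusted p was 0.0803, for MYBPHL (difference -2.04, SE 0.256). MYBPHL entered the test only because the 2 ING1b arrays detected it, so its difference carries no weight. FOSB, TUBB3 and GADD45B differed by 1.70, 1.03 and 0.98 without passing (limma adjusted p = 0.563, 0.563 and 0.777).

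**Figure D4:**
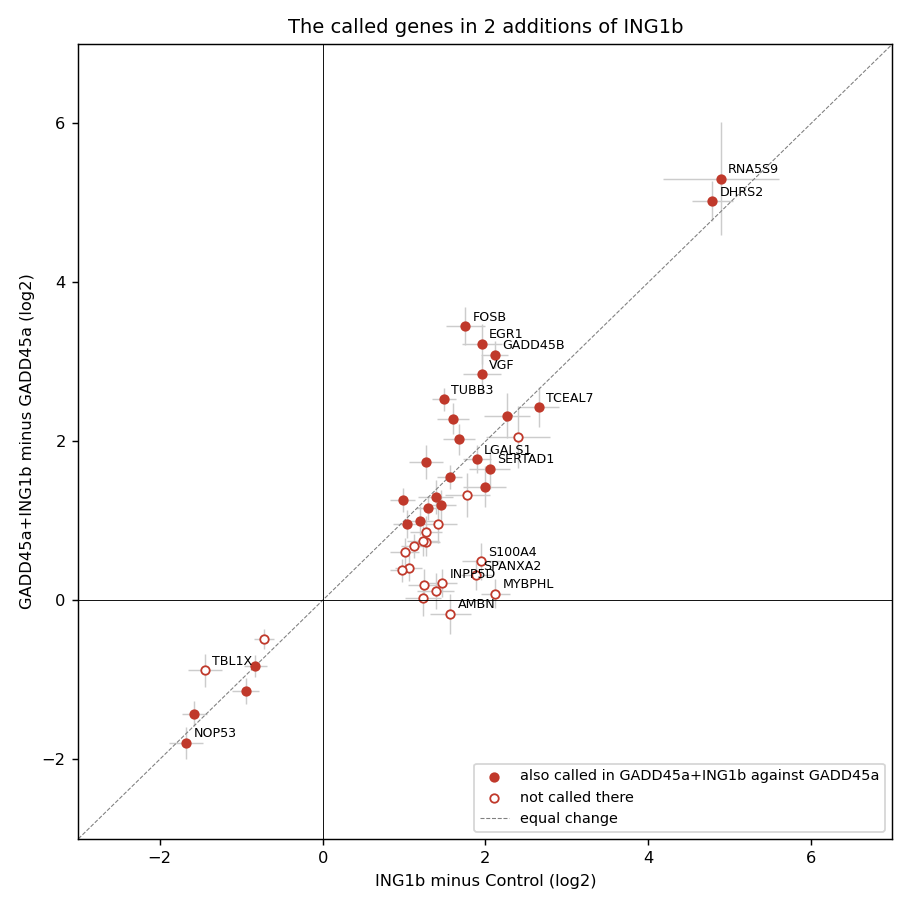
Log2 change of the 46 called genes in ING1b minus Control (x) against GADD45a+ING1b minus GADD45a (y), with bars of 1 SE of the fit, filled points for the 26 genes called in both and a dashed line of equal change. FOSB, EGR1, GADD45B, VGF and TUBB3 lie above the line, and MYBPHL, SPANXA2, INPP5D and S100A4 lie near 0 on the y axis. Of these, MYBPHL, SPANXA2 and INPP5D were detected on the 2 ING1b arrays alone.

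The same construct without its PHD domain gives a further setting, which shares the ING1b arrays with the comparison above. In ING1b against ING1bΔPHD 47 genes (0.442%) rose and 7 (0.0658%) fell, 0.507% of those tested (120 genes, 1.13%, with the block). The count was 6 and 17 without ING1b replicate 1 or 2, and 15 and 14 without ING1bΔPHD replicate 1 or 2. The called genes were chosen on the ING1b and Control arrays, so their place against either group is partly set by that choice, and the ING1bΔPHD levels below are a description. DHRS2 had 5.42 and 5.28 in ING1bΔPHD, H2BC5 had 7.84 and 7.89, TUBB3 had 7.70 and 7.74, and LGALS1 had 7.11 and 7.43. NOP53 had 12.74 and 13.19 in ING1bΔPHD and RPS9 had 13.64 and 13.43. The ING1bΔPHD arrays overlapped the range of Control in H2BC5, NOP53 and RPS9. They lay above it in DHRS2, which was detected in neither of these groups, and below it in TUBB3 and LGALS1.

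Some genes had ING1bΔPHD levels between those of ING1b and Control. GADD45B had 8.04 and 7.96 in ING1bΔPHD, RNA5S9 had 11.43 and 13.27, and SNORA57 had 7.28 and 7.12. In 15 of the 40 genes (37.5%) both ING1bΔPHD arrays lay above both Control arrays, and in 7 (17.5%) both lay below. Over all genes those shares were 17.6% above and 20.6% below. The 12 genes that rose against Control and were not called against ING1bΔPHD were AMBN, CDKN2D, DNAJB1, FOSB, HBEGF, KIAA0513, NEU1, RNA5S9, SMTN, SNORA57, VASN and ZNF77. Their median change was 1.33 against Control and 0.63 against ING1bΔPHD. They were picked in part for missing the threshold against ING1bΔPHD, so the smaller second median is partly set by that choice. The 28 rises called against both groups, also chosen by their calls, had medians of 1.64 and 1.57. They include the 8 rises detected on the ING1b arrays alone. These could not be detected in ING1bΔPHD, so they carry no weight here. All 6 genes that fell were called against ING1bΔPHD too.

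Over all 6 groups, 30 of the 40 genes that rose had all 4 arrays with full-length ING1b above all 8 arrays without it. All 6 genes that fell had those 4 arrays below the other 8. Over all genes the shares were 1.62% above and 0.77% below. The genes were chosen on 4 of these arrays, so the counts are a description. The 10 rises outside that count include MYBPHL, AMBN, INPP5D, SPANXC, NEU1 and DACT3.

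**Figure D5:**
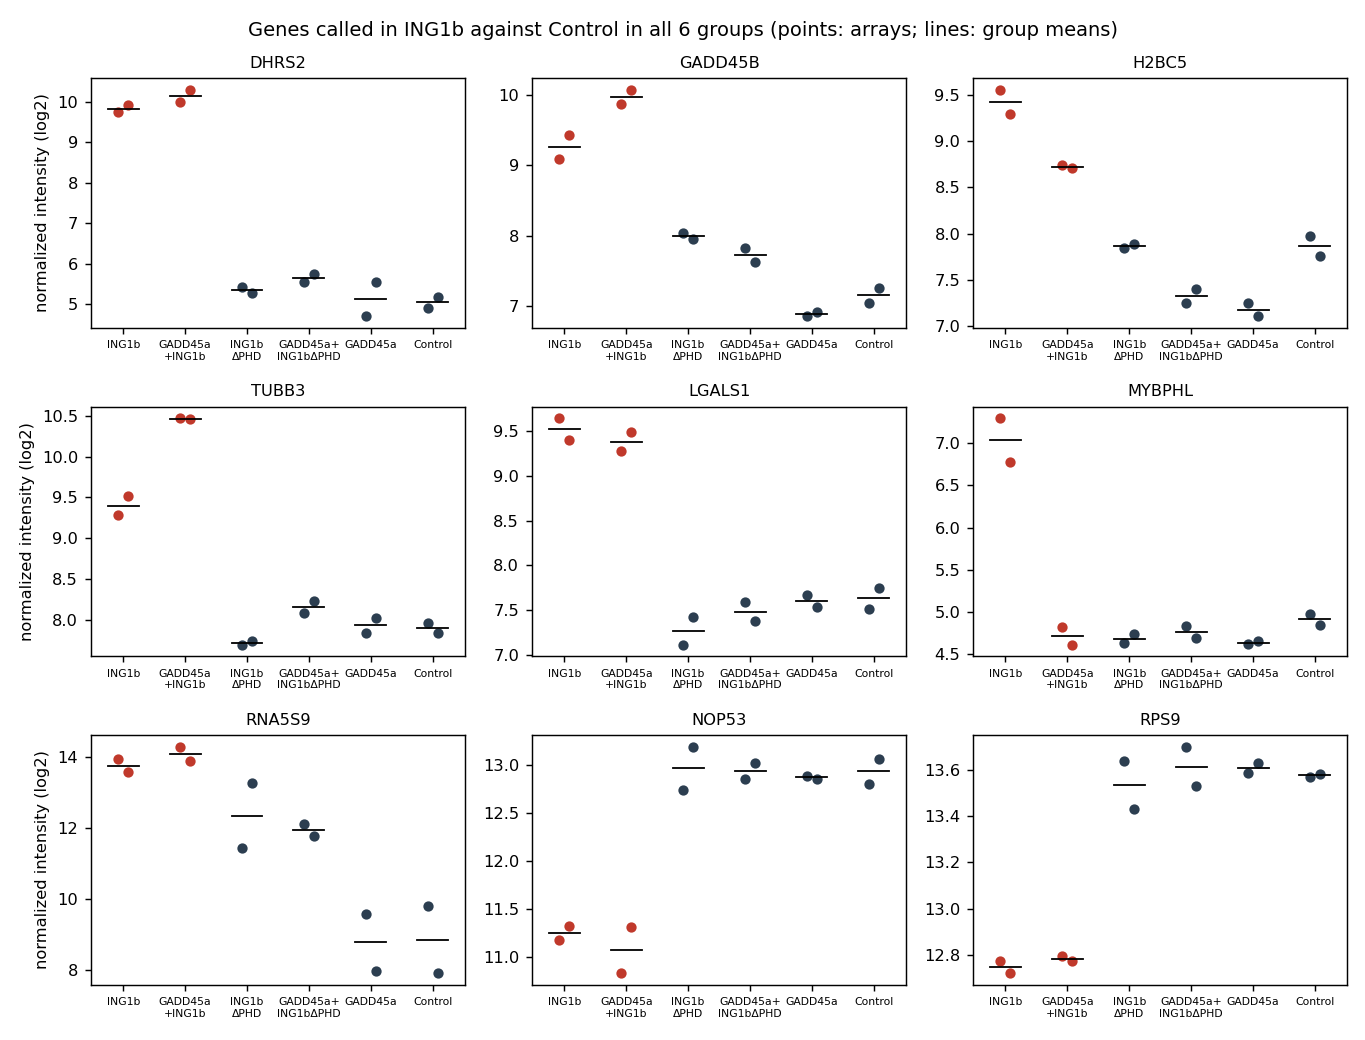
Normalized intensity (log2) of 9 called genes in the 6 groups, with each array as a point, group means as lines, and groups with full-length ING1b in red. DHRS2, H2BC5, TUBB3 and LGALS1 are high in both red groups, and NOP53 and RPS9 are low in both. MYBPHL is high in ING1b, the only group that detected it and through which it entered the test. RNA5S9 is intermediate in the groups with ING1bΔPHD.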

How the data were processed

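RNA of 12 HEK293T cultures, 2 in each of 6 groups, was hybridized to Illumina bead arrays. Per the labels' protocols, biotinylated cRNA was made with a kit that, as background, primes from poly(A), and the submitters' processing notes name GenomeStudio 2011.1. The authors deposited a scanner table with an average bead intensity per probe, not normalized between arrays, and, beside each intensity, a detection p-value. They also deposited an intensity table with equal quantiles on all arrays and values below 0, used as an alternative. How the authors' background options were set is not given in the sources used here.

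Intensities were background-corrected with nec of limma 3.58.1 (R 4.3.3), given an offset of 16, quantile-normalized and put on the log2 scale. Of 47323 probes, 17814 reached a detection p below 0.01 on 2 or more arrays and were kept, and the brightest detected probe stood for each of 10645 genes. Named probes came from GEO's platform annotation, with symbols updated through RefSeq, and 3910 detected probes without a single symbol were fitted apart. One mean per group was fitted over all 12 arrays with limma's moderated test, adjusted by Benjamini-Hochberg over all genes at 0.05. Where a probe was undetected on an array of the dimmer group, that array was set to its detection floor and the fold is a lower bound.

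Replicate numbers were checked as pairs: for 15 pairs of groups the correlation of replicate 2 minus replicate 1 was 0.246 to 0.477, above 0.1 in each, so fits with the replicate number as a block are printed where they change a call or a count. The labels do not say what the numbers share, and p-values measure the spread between these cultures of one line. The number of arrays limits the precision, and the median SE of a log2 change was 0.201. The procedure was tested on simulated data.

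Named genes were every called gene, the ING1, GADD45A, GADD45B and MAGEB2 genes, and for each list the called members with at most 6 others of smallest p. HDAC1, JUN, ASNS, SNORD3A, SNORD3D, RNU6ATAC, TENT5B, SYT1, SAP18 and the genes just outside the threshold were added after the values were seen. The comparison and the 23 gene lists were chosen with earlier results of these data known. Alternatives covered background correction, scaling, filters, probe summaries, the fit and each array left out.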

Additional observations from a re-analysis of the deposited data

Results flagged for a closer look

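Among 3910 detected probes without a single gene symbol, which the gene comparisons do not use, 5 were higher in ING1b than in Control and 3 were lower (limma adjusted p under 0.05 over 17814 probes). Probe ILMN_3261387 had 7.31 and 7.45 in ING1b, against 4.91 and 4.83 in Control, a difference of 2.51. Probe ILMN_1730818 had 8.04 and 8.58 in ING1b and 6.13 and 5.74 in Control, a difference of 2.37. Probe ILMN_3191668 differed by 1.505, ILMN_2401878 by 1.36 and ILMN_1815283 by 1.30. Of the 5, the first 3 also differed in GADD45a+ING1b against GADD45a, by 2.23, 3.32 and 1.54, with limma adjusted p-values of 0.000465, 0.00408 and 0.0281. The other two differed there by 0.18 and 0.30 and were not called. Which genes these probes read was not analysed here.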

How the results depend on the processing

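In ING1b against Control the 46 calls became 24 with detection required on all 12 arrays, 25 with only the 2 groups in the fit and 85 with the replicate block. Leaving out 1 array gave 8 to 69 calls: 8 without ING1b replicate 1, 18 without ING1b replicate 2, 69 without Control replicate 1 and 13 without Control replicate 2. In GADD45a+ING1b against GADD45a the 63 calls became 30, 23 and 119 under the first 3 settings, and 21 to 59 with 1 array left out. In ING1b against ING1bΔPHD the 54 became 21, 23 and 120, and 6 to 53. The 26 genes called in both additions became 14 with only the groups compared and 43 with the block, and 8 to 24 with 1 array left out. The difference between the additions, at 0 calls, gave 8 with the authors' deposited values, 2 with the block and 0 to 0 with 1 array left out. Of the 46 genes, 0 changed sign in 23 alternatives, and, of the 37 detected on more than the 2 arrays of one group, 7 passed wherever they were tested: GADD45B, H2BC5, LGALS1 and TUBB3 in all 23, DHRS2, TCEAL7 and CCDC22 in 22. The cause of these changes was not tested. Fewer genes are tested when detection is required on all arrays, and the spread of a lone array is taken from the other groups. The block ended 0 of the 46 calls. With 2 arrays a group few changes under 2-fold passed: 19 of the 20 rises detected on both Control arrays were over 2-fold, while the falls of RPS9 and EEF1D were under it.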

Other observations

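The second addition called 37 genes that ING1b against Control did not, and several were near the threshold there. The testis genes VCX and VCX3A changed by 2.42 and 1.98 in GADD45a+ING1b against GADD45a, and by 1.07 and 1.22 in ING1b against Control. FOS changed by 1.76 and 1.12, the HSP70 gene HSPA2 by 1.95 and 1.02, the synaptic vesicle gene SYN1 by 1.21 and 0.67, and the U3 RNA SNORD3A by 2.76 and 1.68, in the same order. SAP18, a SIN3-associated protein, had 7.14 and 7.30 in GADD45a+ING1b and 5.96 and 6.06 in GADD45a, a change of 1.21, and -0.02 in ING1b against Control.

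Chromosome 19 held 11 of the 46 called genes, 23.9%, against 6.59% of the genes tested. Of the 11, NOP53 and RPS9 fell, and CDKN2D, CKM, CYP4F3, DACT3, DNAJB1, FOSB, GADD45B, SERTAD1 and ZNF77 rose. CKM and CYP4F3 were detected on the ING1b arrays alone, so they add no weight to the count, and the 46 hold other such genes. The share was seen after the genes were called and was not tested.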
